A study of Mus musculus with 96 samples.

Results

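Trp53 and 9 genes that act beside it in the control of the cell cycle were followed through 3 chromatin marks in hippocampal nuclei of mice that lacked Ogg1, Mutyh or both. The members were Trp53, Mdm2, Cdkn1a, Cdkn1b, Cdkn1c, Cdkn2a, Cdkn2b, Cdkn2c, Gadd45a and Gadd45b, chosen by name, and their peaks were all those that the deposited annotation gave one of these symbols. Of 22815 peaks in 6 tables, 19 belonged to 9 of the 10 genes. Cdkn2b had no peak in any table. No peak of these genes passed the main test for a difference from wild type (WT) in any knockout. The intervals below show how large a difference the 3 libraries per genotype could still hold where reads are not few. At low signal their scale understates changes, so they are no bound there. A count test with rescaled libraries called Cdkn2a in the Mutyh knockout and Gadd45a in the double knockout, both in 1 table. Of all peaks of that table it called 4.01% and 3.88%. With rescaled libraries the main test called both too, beside 3.75% and 5.54% of all peaks. It also called Cdkn2c in the Ogg1 knockout in another table, beside 5.11% of all peaks there. None of these genes passed after adjustment.

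p53, the protein of Trp53, is a transcription factor that accumulates after DNA damage and switches on genes for cell-cycle arrest and cell death, and Mdm2, itself a p53 target, is the ubiquitin ligase that marks p53 for degradation. Cdkn1a (p21), Cdkn1b (p27) and Cdkn1c (p57) inhibit cyclin-dependent kinases of several kinds, whereas the INK4 proteins of Cdkn2a (p16), Cdkn2b (p15) and Cdkn2c (p18) bind Cdk4 and Cdk6, and a second product of Cdkn2a, Arf, restrains Mdm2. Gadd45a and Gadd45b are stress-induced genes that link growth arrest with DNA repair and demethylation. H3K4me3 lies at the starts of active or poised genes, H3K27me3 is the repressive mark written by Polycomb repressive complex 2 (PRC2), and Suz12 is a subunit of that complex. Several inhibitor genes, Cdkn2a among them, are textbook PRC2 targets in dividing cells.

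Mice were males on a C57BL/6N background, aged 6 months, and of 4 genotypes: WT, Mutyh-/-, Ogg1-/- and Ogg1 and Mutyh double knockout (DKO). Ogg1 and Mutyh encode DNA glycosylases, which start the repair of oxidised DNA bases. Nuclei of hippocampi, pooled from several animals of a genotype, were sorted by staining for NeuN, a protein of neuronal nuclei. NeuN+ nuclei are those of neurons that express NeuN, and NeuN- nuclei are mostly those of glia, with other cell types among them. Each library is a pool of animals. Chromatin was precipitated with antibodies to H3K4me3, H3K27me3 or Suz12, in triplicate for each genotype. The 72 libraries fill 6 tables, 1 for each antibody in each fraction, with 12 libraries in a table.

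Reads in peaks per library ran from 96023 to 548706 in H3K4me3 NeuN+ and from 39320 to 120004 in H3K4me3 NeuN-. They ran from 23794 to 52344 in H3K27me3 NeuN+, from 19132 to 78250 in H3K27me3 NeuN-, and from 6652 to 66148 in the Suz12 tables, which held no member peak. Of 12 neuronal marker genes, 11 had an H3K4me3 promoter peak in NeuN+ nuclei and 0 in NeuN- nuclei. Of 22 non-neuronal markers, 4 had one in NeuN+ nuclei, namely Slc1a3, Sox9, Mbp and Cnp, none of which had one in NeuN- nuclei. Only 1, Olig1, had one in NeuN- nuclei, where Gfap, Sox10 and Cx3cr1 had none either. The summed share of signal at the neuronal markers in H3K4me3 NeuN+ lay between 0.0887% and 0.106% in every library of every genotype. Mutyh had no peak, and Ogg1 had 1, in H3K4me3 NeuN+, whose signal was 10.7 ± 4.79 in WT and 12.6 ± 5.94 in Ogg1-/- (SD, n = 3), and this window does not check the deletion.

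Signal is the number of reads in a 401 bp window divided by 1 factor per library, so levels of different windows of a table can be compared as they stand. Every window of the tables with members has this same width, so windows do not give the extent of an enriched region. A window was called a differentially enriched region (DER) in a knockout when its log2 fold change from WT exceeded 0.5 in size and its p, not adjusted, was below 0.05. These limits follow the published definition, whose p came from edgeR on counts. Here the fold change and p came from limma on log2(signal + 1), a scale that understates changes at low signal. In H3K4me3 NeuN+ limma called a smaller share of windows than edgeR with rescaled libraries, as given below. The adjusted p given throughout is the Benjamini-Hochberg value over all windows of a table, and the 95% interval is that of the log2 fold change.

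The member windows were mostly annotated as promoter in H3K4me3, and lay at varied positions in H3K27me3. The promoter label includes windows beside a start that do not cover it, such as those of Trp53 and Cdkn1a. H3K4me3 NeuN+ held 10 windows of 9 genes, of which 9 were annotated as promoter, beside 93.2% of all 12628 windows of that table. H3K4me3 NeuN- held 4 windows, of Cdkn1b, Cdkn2a and Cdkn2c. H3K27me3 NeuN+ held 4, of Cdkn1c, Cdkn2a and Cdkn2c, of which 2 were promoter windows, and H3K27me3 NeuN- held 1, of Cdkn2a. Trp53, Mdm2, Cdkn1a, Gadd45a and Gadd45b thus had 1 window each, in H3K4me3 NeuN+ and nowhere else.

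Sequences are shown for 3 starts near H3K4me3 windows and for 2 stretches inside Cdkn2a windows, to show how the CpG content at these genes varied. Those of Gadd45a and Cdkn1a lie outside the windows. The first 3 sequences are the 250 bases before a RefSeq start (GRCm38.p6), and the last 2 were read from the same build. CG dinucleotides are in capitals.
Gadd45a, chr6:67037408-67037657, minus strand, 160 bp before the H3K4me3 window, 11 CpG: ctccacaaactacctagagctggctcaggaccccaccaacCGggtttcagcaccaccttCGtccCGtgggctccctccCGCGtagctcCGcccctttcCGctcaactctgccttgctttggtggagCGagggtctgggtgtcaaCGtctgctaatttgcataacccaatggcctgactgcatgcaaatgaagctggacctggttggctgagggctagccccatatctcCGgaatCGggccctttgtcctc
Cdkn1b, chr6:134920151-134920400, plus strand, overlapping the H3K4me3 window, 28 CpG: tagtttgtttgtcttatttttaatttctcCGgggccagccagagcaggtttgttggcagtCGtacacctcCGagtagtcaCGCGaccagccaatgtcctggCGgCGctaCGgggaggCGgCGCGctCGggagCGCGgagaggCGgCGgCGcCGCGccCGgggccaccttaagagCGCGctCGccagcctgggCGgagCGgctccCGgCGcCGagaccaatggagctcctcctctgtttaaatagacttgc
Cdkn1a, chr17:29093519-29093768, plus strand, 738 bp before the H3K4me3 window, 19 CpG: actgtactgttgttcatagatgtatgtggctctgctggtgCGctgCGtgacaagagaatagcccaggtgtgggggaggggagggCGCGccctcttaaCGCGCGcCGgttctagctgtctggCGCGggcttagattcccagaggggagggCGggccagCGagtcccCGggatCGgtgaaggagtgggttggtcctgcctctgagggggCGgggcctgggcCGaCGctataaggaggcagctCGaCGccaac
Cdkn2a, chr4:89294875-89295060, minus strand, the 186 bp shared by the H3K4me3 windows of both fractions, 19 CpG: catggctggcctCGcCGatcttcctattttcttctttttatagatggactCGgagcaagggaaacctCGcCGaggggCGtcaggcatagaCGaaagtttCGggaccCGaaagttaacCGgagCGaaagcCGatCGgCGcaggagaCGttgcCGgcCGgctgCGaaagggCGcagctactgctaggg
Cdkn2a, chr4:89296323-89296523, minus strand, the central 201 bp of the H3K27me3 NeuN+ window before the start, 1 CpG: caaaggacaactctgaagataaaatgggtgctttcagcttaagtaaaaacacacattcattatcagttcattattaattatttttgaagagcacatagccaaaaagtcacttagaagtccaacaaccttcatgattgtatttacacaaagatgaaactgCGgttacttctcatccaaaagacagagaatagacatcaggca

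Over whole windows the CpG count of the 10 H3K4me3 NeuN+ windows ran from 16 (Trp53) to 55 (Cdkn2a), beside a median of 35 over all windows of that table. In H3K27me3 NeuN+ the Cdkn1c window held 42 CpG, above 97.7% of the windows or level with them, whereas the Cdkn2c window and the Cdkn2a window before the start held 2 each, beside a median of 5. Of the 10 members, 9 matched RefSeq promoters, with 12 entries in all, and Cdkn1c had none. The letters GGGCGG were present on either strand within 250 bases before the start in 7 of the 12 entries, CCAAT in 5, TATAAA in 2 and the p53 half-site consensus in 4. Over all 32851 promoters the shares were 32.7%, 33.8%, 12.4% and 7.13%, and a base could count for more than 1 motif. The 4 entries with a p53 half-site match were those of Trp53, Mdm2 and Gadd45a and the upstream entry of Cdkn1a. A match describes the letters of the window and says nothing of binding.

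Levels over the 12 libraries of H3K4me3 NeuN+ placed the promoter of Gadd45a highest, at a mean of 32.6, above 87.4% of all windows or level with them. Mdm2 followed at 26.3, then Cdkn2a at 24.05, Trp53 at 23.7, Cdkn1b at 20.8, Gadd45b at 18.0, Cdkn2c at 17.8, the distal Cdkn1c window at 14.6 and Cdkn1a at 14.1. The Cdkn1c promoter window was lowest at 4.81, among the lowest 0.800% of the table. Trp53 and Cdkn2a sat at the middle of the table, whose median was 23.7. The order was not the same in every genotype: Cdkn2a was highest in Mutyh-/- (29.3) and Mdm2 in Ogg1-/- (32.7), and in WT Gadd45b was next to Gadd45a, at 23.0, with Mdm2 at 22.0. Neighbours in the pooled order were compared within libraries by an exact two-sided permutation test of signs over 12 libraries, for 9 pairs. The pairs and their direction were set by the same values, so these p are descriptive. Cdkn1a was above the Cdkn1c promoter in 11 of 12 libraries (mean difference 9.29, exact p = 0.000977, Benjamini-Hochberg adjusted over the 9 pairs 0.00879). Gadd45a was above Mdm2 in 10 of 12 (exact p = 0.0518, adjusted 0.155) and Trp53 above Cdkn1b in 8 of 12 (exact p = 0.0410, adjusted 0.155). The other 6 neighbouring pairs had adjusted exact p between 0.316 and 0.885. Apart from Cdkn1a and the Cdkn1c promoter, the order of neighbours is thus not resolved beyond their spread.

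**Figure D1:**
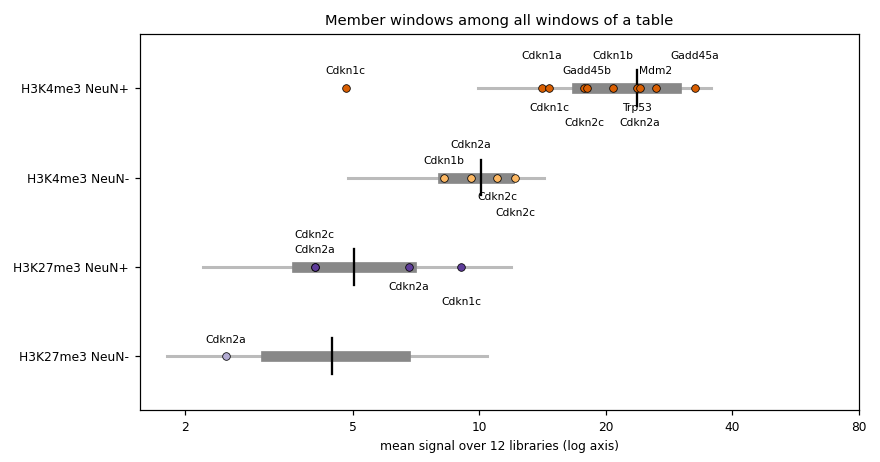
Mean signal over 12 libraries (log axis) of the 19 member windows, as circles, in the 4 tables that hold any. Grey bars run from the 25th to the 75th percentile of all windows of the table, thin lines from the 5th to the 95th, and black ticks mark the median; Gadd45a lies above the bar in H3K4me3 NeuN+, and the Cdkn1c promoter below the thin line.

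Of the 57 pairs of a member window and a knockout, 0 were DERs, 0 had an unadjusted p under 0.05 by limma (the smallest was 0.0845), and the smallest adjusted p was 0.963. In H3K4me3 NeuN+, 0 of 10 member windows were called in Mutyh-/-, Ogg1-/- or DKO, beside 0.911%, 0.966% and 1.46% of all windows. In H3K4me3 NeuN-, 0 of 4 were called, beside 2.94%, 3.36% and 2.29%. In H3K27me3 NeuN+, 0 of 4 were called, beside 3.78%, 3.82% and 3.36%, and in H3K27me3 NeuN- 0 of 1, beside 2.00%, 4.18% and 2.30%. With so few windows, 0 calls is near what these shares give. By direction alone, for Mutyh-/-, Ogg1-/- and DKO in turn, 5, 6 and 7 of 10 estimates were above WT in H3K4me3 NeuN+ and 3, 1 and 1 of 4 in H3K4me3 NeuN-. In H3K27me3 NeuN+ 3, 3 and 4 of 4 were below WT, with medians of -0.55, -0.76 and -0.62, and in H3K27me3 NeuN- the single window was above WT in all 3. The knockouts share the WT libraries.

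Each of the 57 95% intervals of the log2 fold change included 0. The data did not resolve a change of 1 on the log2 scale at most windows, since 3 intervals lay wholly within 1 of 0, all in H3K4me3 NeuN+. The half-width of the interval averaged 1.16 in H3K4me3 NeuN+, 1.77 in H3K4me3 NeuN-, 1.85 in H3K27me3 NeuN+ and 2.10 in H3K27me3 NeuN-. Of the 228 values at member windows, 53.9% rested on 10 or more reads and 14 on none. A library without a read allows up to 3 reads, which is a signal between 2.27 and 3.46 here, and such limits cover counting error only.

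**Figure D2:**
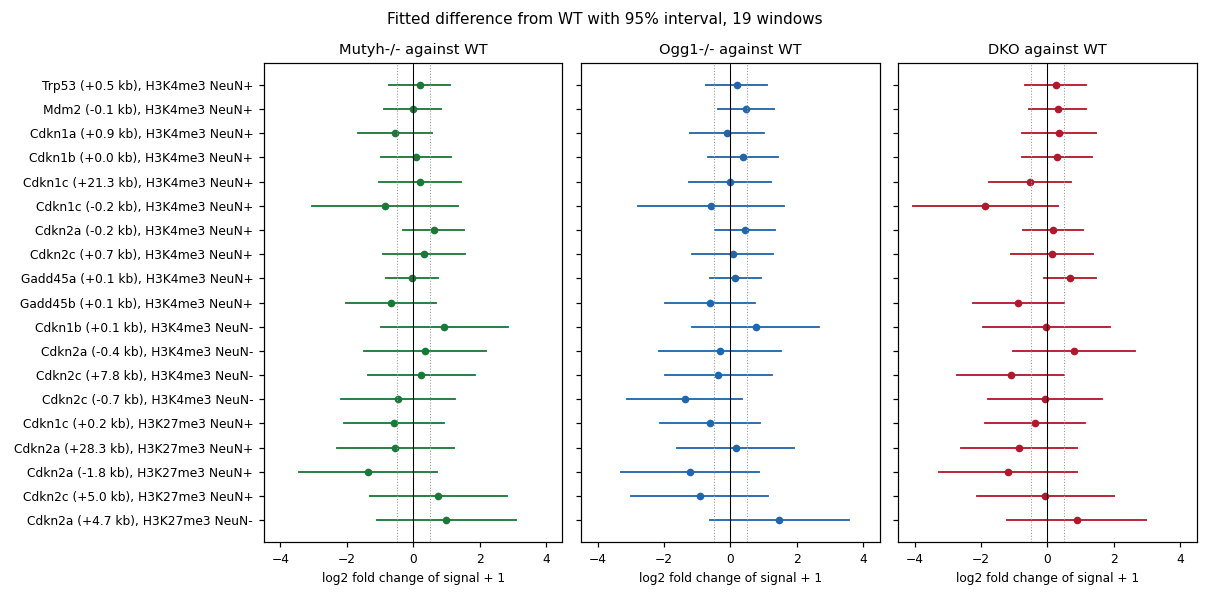
Fitted log2 fold change of signal + 1 against WT (points) with its 95% interval (lines) for the 19 windows, 1 panel per knockout; numbers in brackets give the distance in kb from the nearest annotated start of the gene to the window centre, along transcription. All 57 intervals cross 0 (solid line), and dotted lines mark the DER limit of 0.5.

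The choice of scaling altered 3 of these calls. The median log2 fold change of all windows in H3K4me3 NeuN- was 0.22, 0.25 and 0.05 for Mutyh-/-, Ogg1-/- and DKO, and in H3K27me3 NeuN- 0.29, 0.58 and 0.41, so a fold change there is to be read against that shift. In H3K27me3 NeuN+ it was -0.21, -0.11 and -0.01, and in H3K4me3 NeuN+ -0.07, 0.08 and -0.02. With factors from the trimmed mean of M values (TMM) in place of the authors' factors, the same medians lay between -0.11 and 0.24. On that scale limma called Gadd45a in DKO and Cdkn2a in Mutyh-/- in NeuN+ nuclei and Cdkn2c in Ogg1-/- in NeuN- nuclei, all in H3K4me3, with adjusted p between 0.845 and 1.00. Members called in Mutyh-/-, Ogg1-/- and DKO were thus 1, 0 and 1 of 10 in H3K4me3 NeuN+, beside 3.75%, 3.81% and 5.54% of all windows, and 0, 1 and 0 of 4 in H3K4me3 NeuN-, beside 4.80%, 5.11% and 5.38%. They were 0 of 4 in H3K27me3 NeuN+, beside 4.89%, 4.53% and 3.75%, and 0 of 1 in H3K27me3 NeuN-, beside 4.65%, 4.42% and 3.12%.

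A count test, edgeR on the recovered reads with TMM factors, called Cdkn2a in Mutyh-/- and Gadd45a in DKO in H3K4me3 NeuN+ and no other member. For Mutyh-/-, Ogg1-/- and DKO in turn, its calls made up 4.01%, 3.97% and 3.88% of all H3K4me3 NeuN+ windows. In H3K4me3 NeuN- they made up 2.87%, 3.39% and 3.39%, in H3K27me3 NeuN+ 3.61%, 3.22% and 2.52%, and in H3K27me3 NeuN- 4.30%, 4.12% and 3.89%.

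Beginning with p53 itself, the Trp53 window (chr11:69580660-69581060) lay in an intron of the gene, with its centre 455 bp past the nearest annotated start (GENCODE release M21). Signal was 25.7, 16.6 and 19.4 in WT, 15.3, 34.9 and 23.7 in Mutyh-/-, 32.1, 14.4 and 26.9 in Ogg1-/- and 18.0, 35.4 and 22.0 in DKO. All 4 genotypes overlapped, and each knockout had 1 library below the lowest or near the lowest WT value and 1 or more above the highest. The log2 fold changes were 0.20 in Mutyh-/-, 0.19 in Ogg1-/- and 0.24 in DKO, the last with a 95% interval from -0.67 to 1.16 (adjusted p = 1.00).

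The Mdm2 window (chr10:117710159-117710559) covered annotated starts of the gene, with 142 of its bases in exon. Libraries of WT were close together at 21.9, 20.5 and 23.7, those of Mutyh-/- had 15.3, 24.8 and 27.2, those of Ogg1-/- 40.5, 18.5 and 39.2 and those of DKO 20.3, 29.0 and 34.9. In Ogg1-/- 2 libraries stood well above every WT library and 1 below. Mdm2, the p53 antagonist, had its smallest p there, with a log2 fold change of 0.47 (95% interval -0.38 to 1.33, adjusted p = 1.00). Leaving out any 1 library of the contrast gave estimates from 0.28 to 0.83 and no call.

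Among the Cip/Kip inhibitors, Cdkn1a (p21), the best known p53 target of arrest, had its H3K4me3 window in an intron (chr17:29094506-29094906), 925 bp past the nearest annotated start and 3727 bp past the upstream ones. WT libraries had 14.1, 12.7 and 16.2, Mutyh-/- 7.63, 8.27 and 13.1, Ogg1-/- 8.33, 16.4 and 16.9 and DKO 18.0, 19.3 and 18.2. The 3 DKO libraries all lay above the 3 WT libraries, a comparison named after its values were seen. Of 57 such pairs 2 did not overlap, this one and Cdkn2a in Mutyh-/-, both in H3K4me3 NeuN+, where 5.02% of all windows did not overlap in DKO, 5.77% in Mutyh-/- and 3.68% in Ogg1-/-. The log2 fold change in DKO was 0.35 (95% interval -0.77 to 1.47), and the smallest p of the gene was that of Mutyh-/-, at -0.55 (-1.67 to 0.57), both with an adjusted p of 1.00. The contrast of DKO with the sum of the single knockout effects was 1.00 on the log2 scale (95% interval -0.58 to 2.58). DKO replicate 1 had 8 reads in the window and the other DKO libraries 24 each.

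Cdkn1b (p27), which holds differentiated cells out of the cycle, had a window over its start in both fractions (chr6:134920358-134920758 in NeuN+ and chr6:134920377-134920777 in NeuN-, sharing 382 bp). In NeuN+ nuclei signal was 28.3, 11.7 and 14.0 in WT, 7.63, 26.6 and 27.2 in Mutyh-/-, 33.3, 14.4 and 23.1 in Ogg1-/- and 15.8, 26.5 and 21.2 in DKO. In NeuN- nuclei it was 11.1, 0 and 14.2 in WT, 11.4, 12.96 and 6.50 in Mutyh-/-, 7.92, 6.38 and 12.8 in Ogg1-/- and 2.79, 9.29 and 3.35 in DKO. The genotypes overlapped in both fractions, and 1 WT library had no read in NeuN-. The largest departure was Mutyh-/- in NeuN-, with a log2 fold change of 0.94 (95% interval -0.97 to 2.85, adjusted p = 1.00). Without that WT library, replicate 2, the estimate was -0.31.

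Cdkn1c (p57), an imprinted gene expressed from the maternal copy, had 2 H3K4me3 windows and 1 H3K27me3 window in NeuN+ nuclei. The H3K4me3 promoter window (chr7:143460220-143460620) and the H3K27me3 window (chr7:143459804-143460204) both lay over coding exon of the gene, where the antisense gene Gm44732 runs on the other strand, and were 16 bp apart. Cdkn1c and Cdkn2a, at 1163 bp, were the members with both marks within 2 kb in NeuN+ nuclei, 2 of 10 H3K4me3 windows beside 3.46% of all windows of that table, of which 1.58% overlapped an H3K27me3 window. The H3K4me3 level was in the lowest 0.800% of its table, while the H3K27me3 level, at a mean of 9.05, was above 87.2% of its table.

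At the Cdkn1c promoter, H3K4me3 was 9.004, 6.83 and 5.38 in WT, 2.18, 6.43 and 2.63 in Mutyh-/-, 8.33, 1.03 and 6.92 in Ogg1-/- and 9.02, 0 and 0 in DKO. These rest on 0 to 9 reads, and the DKO libraries without a read allow a signal up to 2.41 and 2.27. DKO replicate 1, the shallowest library of the table, was as high as the highest WT library, and the other DKO libraries were below all 3 WT libraries. The log2 fold change in DKO was -1.88 (95% interval -4.07 to 0.31, adjusted p = 1.00). Leaving out DKO replicate 1 made it -2.99 and a call (95% interval -5.37 to -0.61, adjusted p = 1.00), as were 1.31% of all windows, whose median moved from -0.02 to 0.21.

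H3K27me3 at Cdkn1c was 12.0, 8.86 and 12.9 in WT, 4.06, 8.85 and 9.99 in Mutyh-/-, 2.97, 6.27 and 16.4 in Ogg1-/- and 6.56, 6.79 and 12.8 in DKO. The means of the 3 knockouts were all below that of WT (11.3 ± 2.14) and every genotype overlapped WT. The log2 fold changes were -0.57 (95% interval -2.08 to 0.94), -0.61 (-2.12 to 0.90) and -0.38 (-1.89 to 1.13). The distal H3K4me3 window (chr7:143437841-143438241), 21270 bp past the nearest start of Cdkn1c in a stretch with no annotated gene, had 27.01, 5.85 and 17.2 in WT, 14.2, 23.9 and 13.1 in Mutyh-/-, 20.2, 7.18 and 18.5 in Ogg1-/- and 9.02, 11.3 and 8.34 in DKO. All knockout libraries lay within the WT range, and the log2 fold change in DKO was -0.54 (95% interval -1.77 to 0.70).

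**Figure D3:**
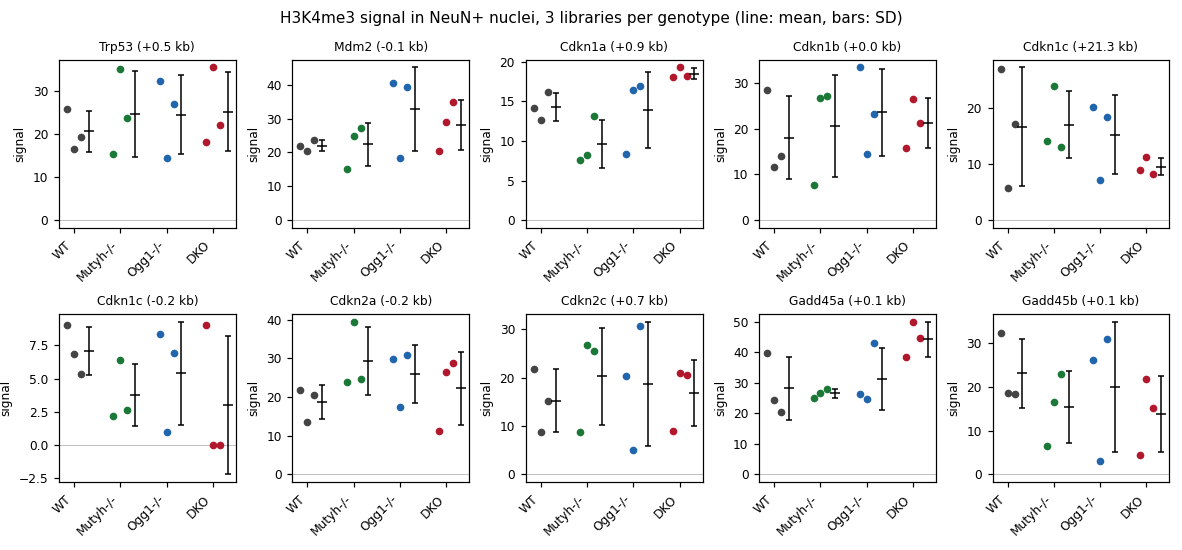
H3K4me3 signal (deposited units, linear axis) of each library at the 10 member windows in NeuN+ nuclei, with the mean and SD of 3 libraries per genotype; the kb value in each title is the distance of the window centre from the nearest annotated start. The DKO points lie above all WT points at Cdkn1a, the Mutyh-/- points above all WT points at Cdkn2a, and elsewhere each knockout overlaps WT.

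Of the INK4 family, Cdkn2a had 5 windows, more than any other member, and none of them lay at the start that gives p16. Its 2 annotated starts are 89282192 and 89294653 on chromosome 4, and the gene is read from the minus strand. The H3K4me3 windows (chr4:89294660-89295060 in NeuN+ and chr4:89294875-89295275 in NeuN-) lay just before the upstream start, from which the Arf transcript begins. The H3K27me3 windows of NeuN+ nuclei were one 1770 bp before that start (chr4:89296223-89296623) and one far past the gene, partly in an exon of the non-coding gene Gm12606 (chr4:89253649-89254049). The H3K27me3 window of NeuN- nuclei (chr4:89277282-89277682) lay in an intron, 4710 bp past the downstream start.

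H3K4me3 at the Arf start in NeuN+ nuclei was 21.9, 13.7 and 20.5 in WT, 23.97, 39.5 and 24.5 in Mutyh-/-, 29.8, 17.4 and 30.8 in Ogg1-/- and 11.3, 26.5 and 28.8 in DKO. All 3 Mutyh-/- libraries were above all 3 WT libraries, and 2 of 3 in Ogg1-/- and in DKO. The log2 fold change in Mutyh-/- was 0.61 (95% interval -0.30 to 1.53, adjusted p = 1.00). With TMM factors Cdkn2a in Mutyh-/- became a DER, at 0.69 by limma (95% interval 0.05 to 1.33) and 0.75 by edgeR, both with an adjusted p of 1.00. DESeq2 and loess scaling called it too, with 2.99% and 3.82% of all windows.

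In NeuN- nuclei the Arf start of Cdkn2a had 4.15, 9.46 and 5.91 in WT, 11.4, 13.8 and 3.25 in Mutyh-/-, 16.8, 0 and 9.94 in Ogg1-/- and 24.1, 7.86 and 7.82 in DKO. One DKO library was far above the rest, and every knockout overlapped WT. Cdkn2a and Cdkn1b were the only members whose H3K4me3 windows overlapped one to one between fractions, among 3000 such pairs. The difference of the knockout effect, NeuN+ minus NeuN-, had p between 0.441 and 0.811 in these 6 tests, of which 0 passed an unadjusted p of 0.05, beside 2.30%, 1.80% and 1.80% of all pairs for Mutyh-/-, Ogg1-/- and DKO. Its standard error was 1.07 for Cdkn2a and 1.10 for Cdkn1b on the log2 scale, so a difference of that size between the fractions was not detectable.

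H3K27me3 1770 bp before the Arf start of Cdkn2a was 3.29, 6.64 and 10.3 in WT, 1.01, 9.95 and 0 in Mutyh-/-, 0.991, 1.05 and 6.17 in Ogg1-/- and 4.37, 4.85 and 0 in DKO. Each knockout had at least 1 library below the lowest WT library, and its mean was 2.73 to 3.66 against 6.76 ± 3.53 in WT. The log2 fold changes were -1.36 (95% interval -3.44 to 0.73), -1.22 (-3.31 to 0.86) and -1.19 (-3.27 to 0.90), in contrasts that share the WT libraries. The window in Gm12606 had 3.29, 7.75 and 10.3 in WT, 0, 7.74 and 15.0 in Mutyh-/-, 2.97, 9.41 and 13.4 in Ogg1-/- and 7.65, 0.969 and 3.21 in DKO. Every knockout overlapped WT, and the log2 fold changes were -0.54, 0.16 and -0.86.

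In NeuN- nuclei the intronic H3K27me3 window of Cdkn2a had 1 read over the 3 WT libraries and 9, 12 and 7 over those of Mutyh-/-, Ogg1-/- and DKO. Signal was 1.32, 0 and 0 in WT, 7.69, 0 and 1.16 in Mutyh-/-, 6.14, 0 and 5.96 in Ogg1-/- and 0.867, 0 and 6.81 in DKO. Replicate 2 of every genotype had no read. The ratio of summed reads per factor, Ogg1-/- to WT, was 10.6, with an exact 95% interval from 1.57 to 453 that covers counting error only. With 1 read in WT the window may have entered the peak set through the knockouts, so that interval does not test a difference. The limma log2 fold change was 1.47 (95% interval -0.63 to 3.57, adjusted p = 0.963), beside a median of 0.58 over all windows, and it ran from 0.72 to 2.997 over the alternative fits that kept every replicate. Without Ogg1-/- replicate 2 it was 2.41 and a call (95% interval 0.10 to 4.72, adjusted p = 0.470), as were 10.3% of all windows, whose median moved to 1.12.

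Cdkn2c (p18), which restrains Cdk6, had 4 windows. In NeuN+ nuclei the H3K4me3 window (chr4:109666332-109666732) lay in an exon, 657 bp past the upstream start. Its signal was 21.9, 8.78 and 15.1 in WT, 8.72, 26.6 and 25.4 in Mutyh-/-, 20.2, 5.13 and 30.8 in Ogg1-/- and 9.02, 20.9 and 20.5 in DKO. All genotypes overlapped, and the log2 fold changes were 0.33, 0.07 and 0.13.

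In NeuN- nuclei the H3K4me3 window of Cdkn2c near the promoter (chr4:109665827-109666227) was 105 bp from the NeuN+ one. It had 16.6, 19.7 and 4.73 in WT, 20.9, 7.78 and 3.25 in Mutyh-/-, 17.8, 1.60 and 1.42 in Ogg1-/- and 22.3, 10.7 and 5.59 in DKO. In Ogg1-/- 2 libraries, with 2 and 1 reads, were below every WT library and 1 was within their range. The log2 fold change in Ogg1-/- was -1.38 (95% interval -3.10 to 0.34, adjusted p = 0.999). With TMM factors it was -1.60 (95% interval -3.10 to -0.11, adjusted p = 0.939) and a DER by limma, and no DER by edgeR. Without Ogg1-/- replicate 1 it was -2.35 and without WT replicate 3 it was -1.96, both calls, among 3.36% and 2.72% of all windows. Loess scaling also called it, with 5.35% of all windows.

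The second NeuN- H3K4me3 window with the symbol Cdkn2c (chr4:109657329-109657729) lay outside that gene, in an exon 324 bp past the start of the non-coding gene 9630013D21Rik. Signal there was 19.4, 9.46 and 9.45 in WT, 15.2, 12.1 and 16.3 in Mutyh-/-, 17.8, 4.79 and 8.52 in Ogg1-/- and 26.0, 7.15 and 0 in DKO. DKO held both the highest and the lowest library, and its log2 fold change was -1.11 (95% interval -2.72 to 0.50). Without DKO replicate 1 it was -2.19 and a call (95% interval -3.89 to -0.50, adjusted p = 0.595). That omission also moved the median of all H3K4me3 NeuN- windows in DKO from 0.05 to -0.32 and the share called from 2.29% to 7.06%. The H3K27me3 window in NeuN+ nuclei (chr4:109660221-109660621) lay past the end of Cdkn2c, and had 0 to 14 reads per library and log2 fold changes of 0.76, -0.92 and -0.07. Cdkn2b (p15), the neighbour of Cdkn2a, had no window of any mark.

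**Figure D4:**
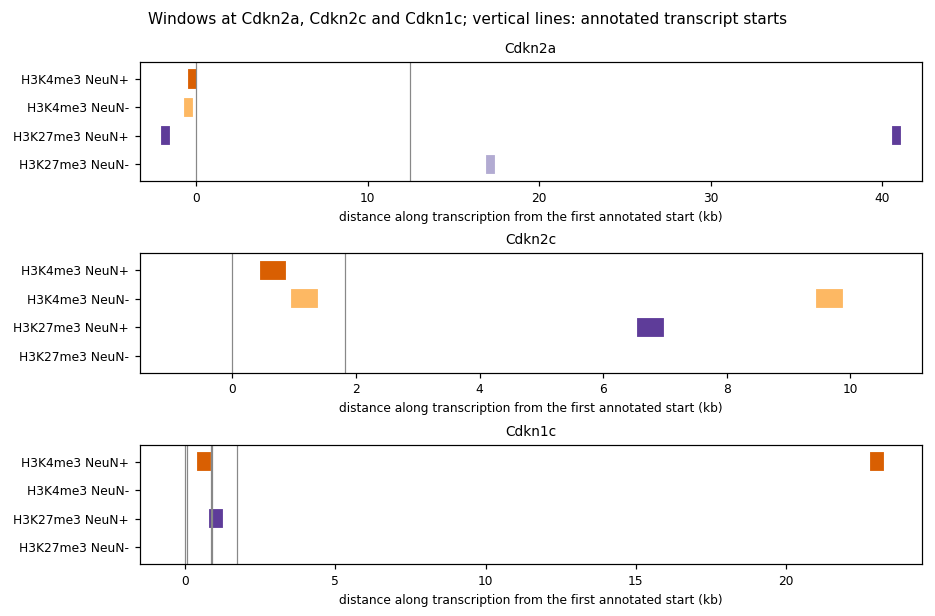
Position of the 401 bp windows (boxes, to scale) along Cdkn2a, Cdkn2c and Cdkn1c, in kb along transcription from the first annotated start, by mark and fraction; vertical lines are annotated transcript starts. The H3K4me3 windows of Cdkn2a cluster at the first of its 2 starts, and no window lies at the second.

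Of the stress-induced genes, Gadd45a had both the highest level of the members and the smallest p. Its window (chr6:67036848-67037248) covered starts, untranslated and coding exon of the gene, and also the gene E230016M11Rik on the other strand. WT libraries had 39.9, 24.4 and 20.5, Mutyh-/- 25.1, 26.6 and 28.0, Ogg1-/- 26.2, 24.6 and 43.1 and DKO 38.3, 49.9 and 44.7. The DKO mean was 44.3 ± 5.77 against 28.2 ± 10.3 in WT (SD, n = 3), and 2 of the 3 DKO libraries were above the highest WT library, with 1 just under it.

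The log2 fold change of Gadd45a in DKO was 0.68 (SE 0.38, 95% interval -0.10 to 1.46, adjusted p = 1.00), and in the single knockouts -0.03 and 0.15. The estimate was between 0.62 and 0.69 in 11 alternative fits, and 4 of these made it a DER, with an adjusted p of at least 0.835. They were the fits that rescaled the libraries, with TMM in limma or edgeR, DESeq2 size factors or loess, of which DESeq2 and loess called 2.81% and 5.67% of all windows in this contrast. With TMM in limma the 95% interval was 0.15 to 1.22. Without WT replicate 1 it was 0.95 and also a DER (95% interval 0.08 to 1.81, adjusted p = 1.00), as were 1.70% of all windows. No other library left out gave a call of Gadd45a.

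Over the 12 libraries, the windows of other genes whose log2 signal was most like that of Gadd45a were at the promoters of 1700019D03Rik (Pearson r = 0.910), Ube4a (r = 0.882) and Zkscan4 (r = 0.880). The median r over the 12627 other windows was 0.291. The 12 libraries differed in depth and scaling, differences that all windows share, and their part in these values was not tested.

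Gadd45b, the activity-induced relative of Gadd45a, had a window over its start (chr10:80930069-80930469). Signal was 32.2, 18.5 and 18.3 in WT, 6.54, 16.5 and 22.8 in Mutyh-/-, 26.2, 3.08 and 30.8 in Ogg1-/- and 4.51, 21.7 and 15.2 in DKO. Each knockout had a library far below WT and at least 1 within the WT range. The log2 fold changes were -0.66, -0.61 and -0.88, the last with a 95% interval from -2.24 to 0.49 (adjusted p = 1.00).

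**Figure D5:**
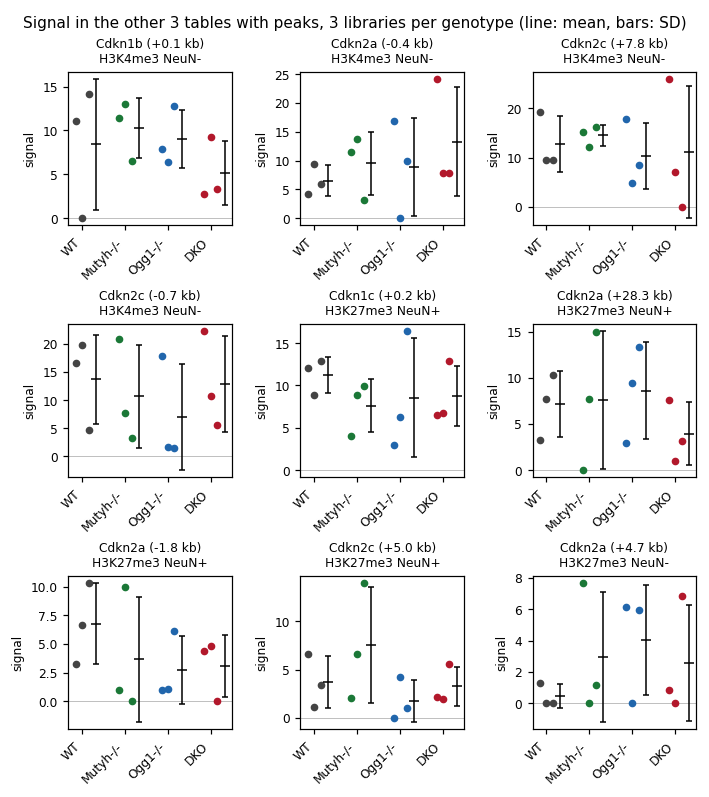
Signal (deposited units, linear axis) of each library at the 9 member windows in H3K4me3 NeuN-, H3K27me3 NeuN+ and H3K27me3 NeuN-, with the mean and SD of 3 libraries per genotype; the kb value is the distance of the window centre from the nearest annotated start. Every knockout overlaps WT at every window, and 12 of the values are 0.

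The same libraries of a genotype tended to be highest or lowest at the members and over all windows. In H3K4me3 NeuN+, WT replicate 1 was the highest WT library at 8 of 10 member windows, beside 53.8% of all windows, and Ogg1-/- replicate 2 was the lowest Ogg1-/- library at 9 of 10, beside 78.5%. DKO replicate 1 was the lowest DKO library at 8 of 10, beside 73.3%. In the other tables the same replicate number was most often highest over all windows in all 4 genotypes. It was replicate 1 in H3K4me3 NeuN- (52.0%, 58.5%, 64.7% and 82.5% of windows in WT, Mutyh-/-, Ogg1-/- and DKO) and in H3K27me3 NeuN- (43.3%, 71.3%, 50.2% and 59.8%), and replicate 3 in H3K27me3 NeuN+ (38.1%, 50.2%, 52.9% and 54.2%). The summed signal in H3K4me3 NeuN+, after the authors' factors, ranged from 210553 to 421957 over the 12 libraries. How much these library differences contribute to each fold change was not tested beyond the rescaled fits given above.

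On the deposited scale no member passed the joint tests. The F test over 4 genotypes had a smallest p of 0.237 over 19 windows, and 0 passed an unadjusted p of 0.05, beside 0.451%, 1.87%, 2.93% and 1.24% of all windows in H3K4me3 NeuN+, H3K4me3 NeuN-, H3K27me3 NeuN+ and H3K27me3 NeuN-. The non-additive contrast, DKO minus both single knockouts plus WT, had a smallest p of 0.154, at the NeuN- promoter window of Cdkn2c, and 0 of 19 passed, beside 0.839%, 3.03%, 3.92% and 2.47%. With TMM factors the F test passed at 1 window, Gadd45a, by limma (adjusted p = 0.951) and by edgeR (adjusted p = 1.00), with 3.40% and 2.89% of all windows. The non-additive contrast passed at the Cdkn2c promoter window with TMM in limma (2.18, adjusted p = 0.917), with 4.01% of all windows, and at 0 windows with TMM in edgeR. Leaving out DKO replicate 1 brought the F test past the threshold at the Cdkn2c window in 9630013D21Rik (5.23% of all windows), and leaving out Ogg1-/- replicate 1 the non-additive contrast at the promoter window (2.39%).

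Windows of different tables were compared by position. Of the 19 windows, 4 overlapped a window of another table by 1 bp or more, and 9 lay within 2 kb of one. The 4 were the H3K4me3 windows of both fractions at Cdkn1b and Cdkn2a, thus 1 mark. They were 2 of 10 in NeuN+, beside 23.8% of all windows, and 2 of 4 in NeuN-, beside 91.7%. Within 2 kb these were 3 of 10 and 3 of 4, beside 25.1% and 96.6%. In H3K27me3 NeuN+ 2 of 4 lay within 2 kb of an H3K4me3 NeuN+ window, beside 10.4%. No H3K4me3 window of a member overlapped an H3K27me3 window, which is near the share over all windows. As all windows have 1 width, the marks may still meet where their windows do not. In the same fraction that share was 1.58% in NeuN+ and 2.60% in NeuN-. The nearest Suz12 window in NeuN+ nuclei was 41949 bp from the Cdkn1c promoter, at Phlda2, and 310799 bp from Cdkn2c, and for Cdkn2a it was 4578580 bp or more away. Gadd45a and Cdkn1b share chromosome 6 with Ogg1, at 46.3 and 21.6 Mb, and Cdkn2c and Cdkn2a share chromosome 4 with Mutyh, at 7.14 and 27.5 Mb.

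A list of 67 other genes of the p53 pathway and the G1 machinery was read beside the members, and 61 of them had a peak. Over all tables and knockouts 6 of 297 pairs (2.02%) were DERs, 5 higher and 1 lower than WT, and 0 had an adjusted p under 0.05. The shares over all windows, given with each table, were of like size, so the count is near the background. In H3K4me3 NeuN+ 61 genes had 64 windows and 0 were called in any knockout, beside 0.911%, 0.966% and 1.46% of all windows, with median log2 fold changes of -0.07, 0.14 and 0.05 beside -0.07, 0.08 and -0.02 over all windows. In H3K4me3 NeuN- 23 genes had a window each, of which 1 was called higher in Mutyh-/-, 2 in Ogg1-/- and 0 in DKO, beside 2.94%, 3.36% and 2.29%. In H3K27me3 NeuN+ 4 genes had 5 windows, of which 1 was called lower in Mutyh-/- and 1 higher in DKO, beside 3.78% and 3.36%. In H3K27me3 NeuN- 3 genes had 6 windows, of which 1 was called higher in DKO, beside 2.30%.

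Of the 6 called windows, 4 had a WT library without a read. E2f4, a repressive partner of the retinoblastoma proteins, had NeuN- H3K4me3 of 4.15, 4.73 and 5.91 in WT and 21.9, 26.8 and 14.6 in Mutyh-/-, with no overlap (log2 fold change 1.87, SE 0.73, adjusted p = 1.00). Of all windows in that contrast, 9.24% did not overlap. Rbl1 (p107), of the retinoblastoma family, had 8.30, 0.788 and 0 in WT and 14.8, 7.98 and 11.4 in Ogg1-/- (log2 fold change 2.24, SE 1.01), which overlap. Ppm1d, the phosphatase Wip1 that dampens p53 signalling, had 5.53, 7.09 and 0 in WT and 20.8, 17.6 and 5.68 in Ogg1-/- (log2 fold change 1.89, SE 0.90), which overlap.

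The other 3 called windows of the list were in H3K27me3. Trp73, a p53 homologue, had 1.32, 4.98 and 0 in WT and 19.9, 9.25 and 10.2 in DKO in an intron in NeuN- nuclei, with no overlap (log2 fold change 2.48, SE 1.12). Pmaip1, which encodes the p53-induced death factor Noxa, had 12.0, 17.7 and 8.62 in WT and 3.04, 5.53 and 0.999 in Mutyh-/- in NeuN+ nuclei, with no overlap (log2 fold change -1.83, SE 0.83). Gadd45g, the third Gadd45 gene, had 0, 0 and 1.72 in WT and 5.46, 6.79 and 3.21 in DKO at an intergenic window in NeuN+ nuclei, with no overlap (log2 fold change 2.09, SE 1.03). With so little signal in WT, the Gadd45g window may also have entered the peak set through the knockouts, so its call is no independent result. The same may hold for the other windows called higher than WT, those of Trp73, Rbl1, Ppm1d and E2f4. In H3K27me3, 6.77% of all windows did not overlap in NeuN- DKO, 9.15% in NeuN+ Mutyh-/- and 9.08% in NeuN+ DKO. The adjusted p of all 6 was at least 0.998 by limma.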

How the data were processed

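Chromatin immunoprecipitation reads were aligned by the authors to GRCm38/mm10 with Bowtie2 (version 2.3.5.1 in the submitters' processing notes), enriched regions were called with epic2, regions found in several replicates were kept as consensus peaks, reads were counted with DiffBind (3.10.1) and peaks were annotated with ChIPseeker (1.36). The deposited values are signal: reads per 401 bp window divided by 1 factor per library, so each value is a whole multiple of what 1 read is worth (100% of values within 0.001). Reads were recovered by that division. In the sources used here the filtering of duplicates is not stated, and input libraries were not used.

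The design named limma-trend for such values, on log2(signal + 1), with the 12 libraries of a table in 1 fit, genotype as the only term and all windows tested without a filter. limma 3.58.1 pulls the variance of a window towards a trend, with 8 residual degrees of freedom and a prior of 24.9 (H3K4me3 NeuN+) or 58.3 (H3K4me3 NeuN-). In both H3K27me3 tables the prior was infinite, so the spread of a single window did not enter its p there. Fractions were compared in 1 fit of 24 libraries over windows that overlap one to one. The code was tested on simulated counts with large changes placed at H3K4me3 NeuN+ windows above the median signal. The simulation had no changes at low signal and no shift between libraries, so it does not show how the method performs there. In the H3K4me3 tables the limma p measures the spread between pools of nuclei in a window, pulled towards the trend. In the H3K27me3 tables it rests on the trend of that spread over all windows.

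Alternatives were pseudocounts of 0.5 and 4, leaving out the lowest 25% of windows, TMM and loess scaling, robust variance moderation, the 6 libraries of a contrast alone, a replicate block, each library left out, and, on recovered reads, edgeR 4.0.16 with TMM or the authors' factors and DESeq2 1.42.0. Members and lists were chosen with earlier results of these data known. All members are described with every window. For each, the window and knockout with the smallest p were named, with up to 10 called windows of the pathway list. Other comparisons named, such as Cdkn1a in DKO, were chosen after their values were seen. Sequences are from RefSeq and GRCm38.p6, and positions in genes from GENCODE M21.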

Additional observations from a re-analysis of the deposited data

How the results depend on the processing

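In H3K4me3 NeuN+ the count of member DERs rose from 0 to 1 in Mutyh-/- (Cdkn2a) and in DKO (Gadd45a) with TMM in limma, TMM in edgeR, DESeq2 and loess scaling, and in H3K4me3 NeuN- from 0 to 1 in Ogg1-/- (Cdkn2c) with TMM and loess scaling in limma. Leaving out 1 library gave 0 to 1 calls in each of 4 combinations: H3K4me3 NeuN+ DKO (without WT replicate 1, Gadd45a, or DKO replicate 1, Cdkn1c), H3K4me3 NeuN- Ogg1-/- (without WT replicate 3 or Ogg1-/- replicate 1, Cdkn2c), H3K4me3 NeuN- DKO (without DKO replicate 1, Cdkn2c) and H3K27me3 NeuN- Ogg1-/- (without replicate 2, Cdkn2a). The share of all windows called in these fits was 1.31% to 10.3%. The genotype F test passed at 1 window, Gadd45a, with TMM in limma or edgeR and at 0 to 1 without 1 library, and the non-additive contrast at 1, Cdkn2c, with TMM in limma (0 in edgeR) and at 0 to 1 without 1 library. Windows that meet another table rose from 4 to 9 within 2 kb. The smallest-p contrast of Trp53 was 0.24, with -0.022 to 0.45 when 1 library was left out (the lowest without DKO replicate 2), and that of Cdkn1b in NeuN- was 0.94, with -0.00232 by DESeq2 and -0.31 to 1.65 when 1 library was left out (the lowest without WT replicate 2). The cause of these shifts was not tested.

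Same-numbered WT and knockout libraries did not deviate together in every pair in any table with members (all 3 correlations over windows above 0.1 in none). By this rule the main fits left the replicate numbers out. The measure does not register a shift shared by all windows. In the tables other than H3K4me3 NeuN+ the same replicate number was most often highest in all genotypes, and the main p do not adjust for it. With the replicate block 0 member windows were called, and the limma p of Cdkn2c in Ogg1-/- at the NeuN- promoter window went from 0.115 to 0.0548. The count over all windows rose in each table with the block. In H3K4me3 NeuN- it rose from 96, 110 and 75 to 187, 180 and 146 and in H3K27me3 NeuN- from 34, 71 and 39 to 83, 136 and 75 (Mutyh-/-, Ogg1-/-, DKO). In H3K27me3 NeuN+ Mutyh-/- it rose from 156 to 242. Adjusted p under 0.05, both other pseudocounts, robust moderation, the low-signal filter, 6 libraries alone and edgeR with the authors' factors also gave 0 member calls. Depth limits these results: a member window held 0 to 62 reads in a library.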
